A study of Mus musculus with 6 samples.

Results

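Calmodulin, calcineurin and the proteins that act on calcineurin were followed in hippocampal RNA through the 8 genes Calm2, Calm3, Ppp3ca, Ppp3cb, Ppp3r1, Rcan1, Rcan2 and Nfatc3. Members were all probe sets annotated to exactly 1 of these symbols, which gave 16 of the 45101 probe sets in the data, for 6 of the 8 genes (and of 18193 genes with such a probe set on the array). Ppp3cb had 5 probe sets, Ppp3ca 3, and Ppp3r1, Rcan1, Rcan2 and Nfatc3 had 2 each. No probe set could be assigned to Calm2 or Calm3 in the annotation used here, so calmodulin itself was not analysed, and 1 further probe set that lists Ppp3r1 beside a second gene was left out. The study compared 3 arrays of the line L26, adult male mice homozygous for a transgene of daDREAM, with 3 arrays of wild type mice. The wild type mice were littermates without the transgene, all animals were of mixed C57B6xCBA background, and neither group received a stimulus as far as the labels state. daDREAM is a dominant active mutant of DREAM, a calcium-binding transcriptional repressor. L26 is a single transgenic line, and neither the promoter that drives the transgene nor the number of animals behind an array is stated in the labels.

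Calmodulin is the ubiquitous calcium sensor of cells, and calcium-loaded calmodulin switches on calcineurin, a protein phosphatase that is very abundant in brain. Calcineurin pairs a catalytic A subunit with the calcium-binding regulatory B subunit. In neurons it opposes kinases at synapses, takes part in long-term depression, and dephosphorylates NFAT transcription factors, which then enter the nucleus. The Rcan proteins bind calcineurin and can inhibit it, and Rcan1 is itself a classical NFAT target, so that its transcript is widely used as a readout of calcineurin and NFAT activity.

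Of the phosphatase, the subunit genes Ppp3ca, Ppp3cb and Ppp3r1 differed by at most 0.11 between L26 and wild type hippocampus, and the inhibitor gene Rcan2 was the member with the largest difference. Both Rcan2 probe sets were lower in every L26 array than in any wild type array, as were 9.32% of all probe sets. The Rcan2 differences were -0.23 and -0.30 on the log2 scale. Over the other 14 probe sets the differences ran from -0.08 to 0.11. None of the 16 passed an adjusted p of 0.05 (limma, Benjamini-Hochberg over 45037 probe sets, 3 arrays against 3), where 3.92% of all probe sets did. At an unadjusted p under 0.05 there were 2, both of Rcan2, against 18.1% of all probe sets. The median size of the difference was 0.043 over the 16 probe sets and 0.073 over all probe sets.

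Because Rcan2 and Rcan1 are the regulators on which the comparison turns, the 250 bases before their annotated transcription starts are shown (RefSeq, GRCm38.p6, read in the direction of the gene). In the 3 Rcan2 windows capitals mark GTCA or its reverse complement TGAC, the core of the element that DREAM binds.
Rcan2 chr17:43801102-43801351 (+): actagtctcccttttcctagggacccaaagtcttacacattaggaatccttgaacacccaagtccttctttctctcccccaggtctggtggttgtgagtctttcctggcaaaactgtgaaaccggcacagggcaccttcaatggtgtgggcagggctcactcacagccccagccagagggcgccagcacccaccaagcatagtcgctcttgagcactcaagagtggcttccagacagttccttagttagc
Rcan2 chr17:43801601-43801850 (+): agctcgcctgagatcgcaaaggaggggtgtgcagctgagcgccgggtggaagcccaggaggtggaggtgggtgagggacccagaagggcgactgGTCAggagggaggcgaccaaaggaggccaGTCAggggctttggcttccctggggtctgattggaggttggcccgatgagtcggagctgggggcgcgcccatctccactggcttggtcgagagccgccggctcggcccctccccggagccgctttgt
Rcan2 chr17:43952749-43952998 (+): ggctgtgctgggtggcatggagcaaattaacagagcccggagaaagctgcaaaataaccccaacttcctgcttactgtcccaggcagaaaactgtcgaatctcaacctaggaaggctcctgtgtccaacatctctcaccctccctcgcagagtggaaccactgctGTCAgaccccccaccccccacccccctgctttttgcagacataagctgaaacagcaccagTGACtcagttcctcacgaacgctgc
The first window holds no match, the second has 2, which begin 156 and 127 bases before the start, and the third has 2, at 85 and 25 bases. So short a motif is common: 80.2% of 32851 such windows in the mouse table hold at least 1 match, with a median of 2. Of the other members, Rcan1 has 2 and 4 matches in its windows, Nfatc3 4 and 2, Ppp3r1 4, Calm3 2 and Ppp3cb 0. No window was available for Ppp3ca or Calm2. A link between the motif and the differences was not tested. In the 2 Rcan1 windows capitals mark GGAAA or TTTCC, the core that NFAT proteins recognise.
Rcan1 chr16:92466170-92466419 (-): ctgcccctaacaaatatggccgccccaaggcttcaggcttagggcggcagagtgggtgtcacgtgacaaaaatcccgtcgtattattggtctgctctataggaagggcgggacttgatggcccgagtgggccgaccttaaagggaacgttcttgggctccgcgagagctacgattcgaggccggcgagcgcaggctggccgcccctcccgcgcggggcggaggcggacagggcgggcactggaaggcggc
Rcan1 chr16:92400079-92400328 (-): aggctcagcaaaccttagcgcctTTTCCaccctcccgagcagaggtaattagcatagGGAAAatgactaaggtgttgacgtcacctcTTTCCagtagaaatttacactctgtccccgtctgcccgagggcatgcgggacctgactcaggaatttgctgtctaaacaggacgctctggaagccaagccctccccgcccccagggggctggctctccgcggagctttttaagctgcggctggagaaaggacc
The window upstream of the whole gene has 0 matches and that of the internal start has 3, at 227, 193 and 163 bases before the start. Of all windows 55.6% hold this core, with a median of 1. No match of one motif overlapped a match of the other in these windows. Which of these starts feeds which probe set was not analysed here.

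The catalytic A subunits are encoded by Ppp3ca, the predominant isoform gene of neurons, and Ppp3cb. Ppp3ca probe set 1426401_at read 13.85, 13.83 and 13.81 in L26 and 13.78, 13.78 and 13.79 in wild type, in log2 units. The L26 arrays lay above the wild type arrays, but the gap between the groups was 0.02 and the difference 0.05, with a 95% interval from -0.07 to 0.16 (limma). Probe set 1438478_a_at read 13.02, 13.01 and 12.99 in L26 against 12.94, 12.97 and 12.91 in wild type, a difference of 0.07 (95% interval -0.05 to 0.19). Here too the groups did not overlap, again by 0.02. The remaining Ppp3ca probe set, 1452056_s_at, overlapped, with a difference of 0.03. Probe set 1426401_at was brighter than 99.7% of all probe sets, and the values of Ppp3ca varied less within groups than most of the array, with SDs of 0.015 to 0.031.

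Ppp3cb overlapped between the groups on each of its 5 probe sets. Its brightest, 1428473_at, read 13.06, 13.07 and 13 in L26 and 13.07, 13.01 and 13.02 in wild type, a difference of 0.01 (95% interval -0.11 to 0.13). The other Ppp3cb probe sets differed by -0.04 (1427468_at), 0.04 (1433835_at), 0.03 (1428474_at) and -0.01 (1446149_at). The last of these lay at 5.60 to 5.67 in L26 and 5.61 to 5.67 in wild type, at the 18.5th percentile of brightness.

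Ppp3r1 encodes the regulatory B subunit, which binds calcium and which the active phosphatase requires. Probe set 1433591_at read 13.51 in all 3 L26 arrays and 13.55, 13.50 and 13.50 in wild type. The difference was -0.007, with a 95% interval from -0.12 to 0.11. Its dimmer probe set 1421786_at read 8.99, 9.06 and 8.97 in L26 and 8.89, 8.86 and 8.95 in wild type. These groups did not overlap, with a difference of 0.11 (SE 0.06, adjusted p = 0.369, limma). Groups that do not overlap were frequent on these arrays, at 21.9% of all probe sets, and were found for 5 of the 16, with L26 above wild type in 3 (12.5% of all probe sets) and below in 2 (9.32%).

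**Figure D1:**
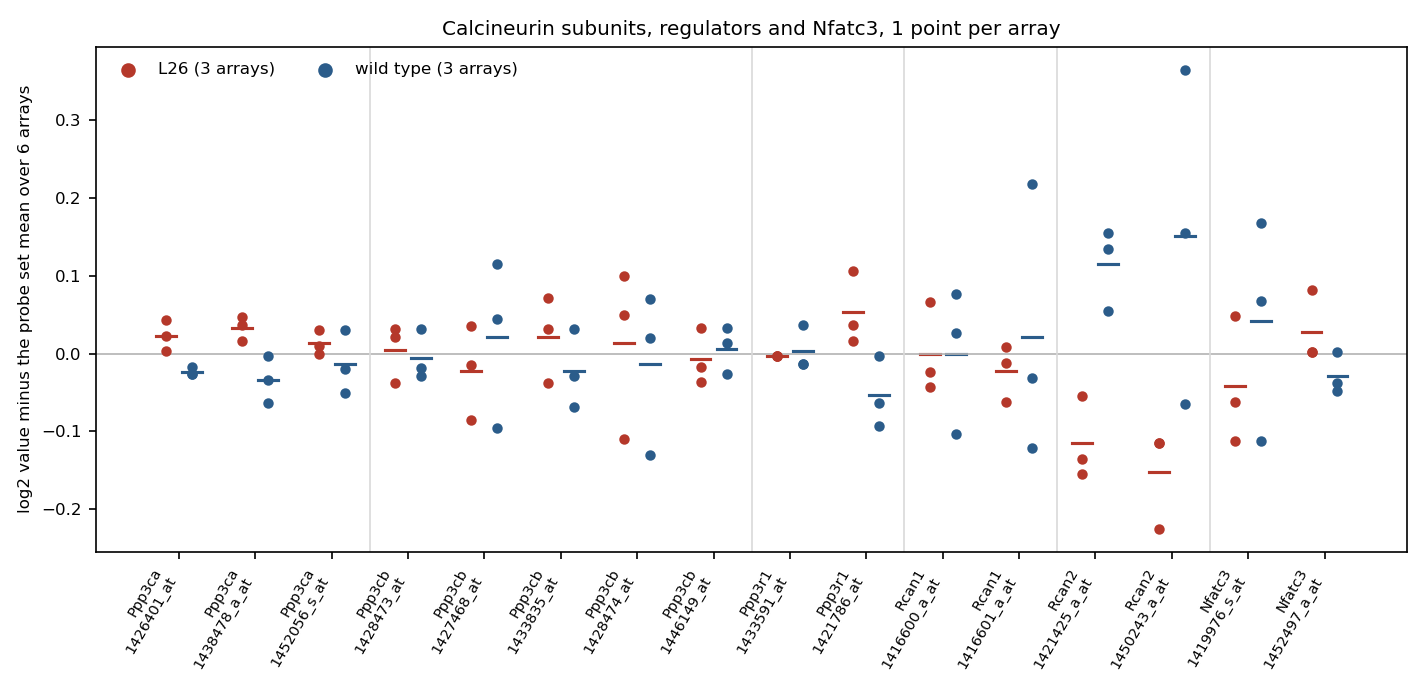
Log2 value of each array minus the mean of its probe set over the 6 arrays, for the 16 probe sets, with 1 point per array and a line at each group mean. The 2 Rcan2 probe sets have all L26 points below all wild type points, while 11 probe sets overlap and the 3 others that do not are separated by 0.02.

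Rcan2, an inhibitor of calcineurin that is expressed in brain, had 2 probe sets. Probe set 1421425_a_at read 11.49, 11.39 and 11.41 in L26 and 11.60, 11.68 and 11.70 in wild type. The highest L26 array was 0.11 below the lowest wild type array, and the means were 11.43 ± 0.05 and 11.66 ± 0.05 (SD, n = 3 each). That is a difference of -0.23 (SE 0.06, 95% interval -0.36 to -0.10), or 0.853 times the wild type level, with an adjusted p of 0.0659 over all probe sets (limma). Probe set 1450243_a_at read 8.59, 8.70 and 8.70 in L26 and 8.97, 9.18 and 8.75 in wild type. The wild type arrays were spread more widely here, and the lowest of them was 0.05 above the highest L26 array. The difference was -0.30 (SE 0.10, 95% interval -0.53 to -0.08, adjusted p = 0.14, limma).

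Whether Rcan2 counts as changed depended on the table in which it was tested. When each gene was represented by its brightest probe set, 1421425_a_at for Rcan2, and 18193 genes were fitted, the adjusted p of Rcan2 was 0.0491 (limma), with 5.19% of genes past 0.05. In that gene table the call was lost when any 1 of the 6 arrays was left out, at adjusted p-values from 0.0593 to 0.156. It was also lost with the replicate number as a block (adjusted p = 0.109), after repeated quantile normalization (0.0559) and without moderation (0.14), and was kept under the other alternatives. With all probe sets fitted, 1421425_a_at passed after arrays were centred on their medians (-0.26, adjusted p = 0.041), and 1450243_a_at passed without wild type replicate 3 (-0.41, adjusted p = 0.0427). An exact permutation test over the arrays gave p = 0.1 for both probe sets, the smallest that 3 arrays against 3 allow.

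The markers of other cells moved on the same arrays. The mean log2 level of 7 oligodendrocyte markers ran from 11.99 to 12.23 in L26 and from 11.66 to 11.79 in wild type, with 6 of the 7 genes higher at the threshold. For 7 markers of endothelium and pericytes it ran from 9.06 to 9.13 in L26 and from 8.49 to 8.61 in wild type, with 6 of 7 higher. Of all genes 2.63% were higher at the threshold and 2.57% lower. The mean of 5 cortical and subicular markers ran from 9.88 to 9.99 in L26 and from 10.23 to 10.34 in wild type, with 3 of 5 lower. The mean of 6 markers of hippocampal fields ran from 9.55 to 9.61 in L26 and from 9.34 to 9.43 in wild type. Of the 6 genes 3 were higher at the threshold, while Wfs1 (-0.10) and Dsp (-0.17) had lower means and did not pass. The mean of this list lay above the array medians (7.27 to 7.32) in all 6 arrays, as did that of each other marker list. For 5 general neuronal markers the mean ran from 12.85 to 12.88 in L26 and from 12.89 to 12.95 in wild type. Of these 5 genes 0 passed (limma), and 1 had an unadjusted p under 0.05, against 20.3% of all genes. The means of 5 astrocyte and 5 microglial markers were higher by 0.07 and 0.11, with 0 and 2 genes past the threshold. Of the astrocyte markers Gfap had a lower mean (-0.09), with -1.60 and 0.29 on its 2 other probe sets. Of the microglial markers C1qa had a lower mean (-0.03). The means of 3 choroid plexus markers overlapped, at 11.04 to 11.88 in L26 and 10.88 to 11.50 in wild type. The part of these shifts in the Rcan2 difference was not tested, and in bulk tissue fewer cells of a type and less RNA per cell cannot be told apart.

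**Figure D2:**
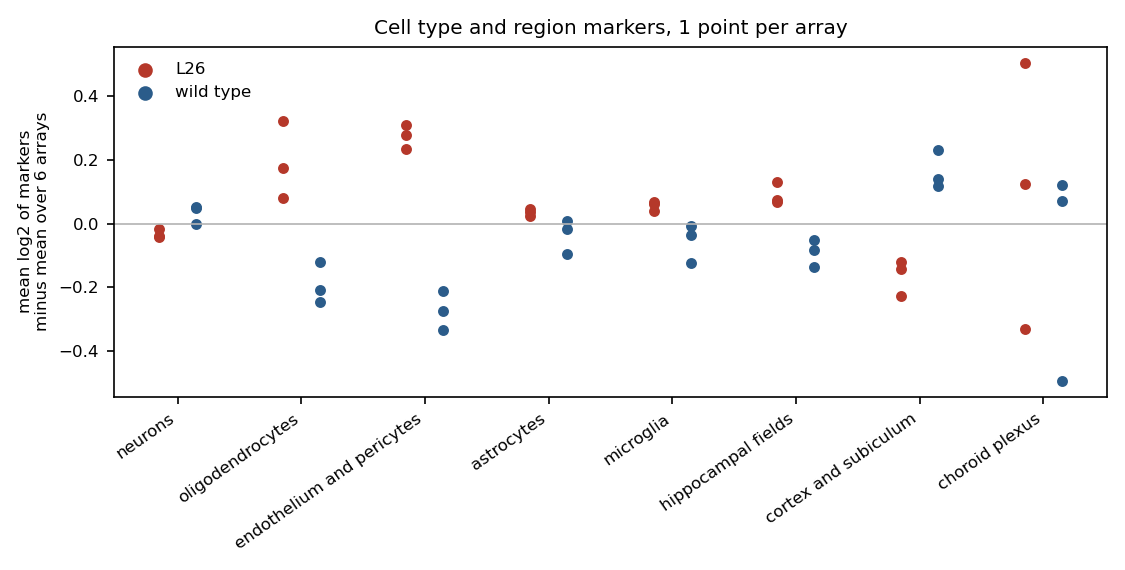
Mean log2 level of each marker list minus its mean over the 6 arrays, 1 point per array. The oligodendrocyte, endothelial and pericyte, astrocyte, microglial and hippocampal field lists have all L26 arrays above the wild type arrays. The neuronal and the cortical and subicular lists have them below, and the choroid plexus list overlaps.

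Rcan1, the inhibitor that NFAT induces, showed no such difference. Probe set 1416600_a_at read 10.12, 10.01 and 10.03 in L26 and 10.08, 10.13 and 9.95 in wild type, and both groups averaged 10.05. Its difference was 0, with a 95% interval from -0.15 to 0.15 on the log2 scale (limma), which is 0.902 to 1.11 times the wild type level. Probe set 1416601_a_at read 8.54, 8.49 and 8.56 in L26 and 8.52, 8.77 and 8.43 in wild type. The L26 arrays lay within the wild type range, and the difference was -0.04 (95% interval -0.24 to 0.15). Both Rcan1 probe sets carry the suffix _a_at, given by the array's maker to probe sets that match several transcripts of 1 gene, so the NFAT-induced form from the internal start was not read separately.

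The remaining relative, Rcan3, is no member and had positive differences. Its probe set 1434027_at averaged 8.28 ± 0.08 in L26 and 8.15 ± 0.06 in wild type, and 1450450_at averaged 5.95 ± 0.09 in L26 and 5.76 ± 0.03 in wild type (SD, n = 3 each). The L26 arrays lay above all wild type arrays on both, as they did on 12.5% of all probe sets. The Rcan3 differences were 0.13 and 0.19, with adjusted p-values of 0.327 and 0.147 (limma, over probe sets).

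**Figure D3:**
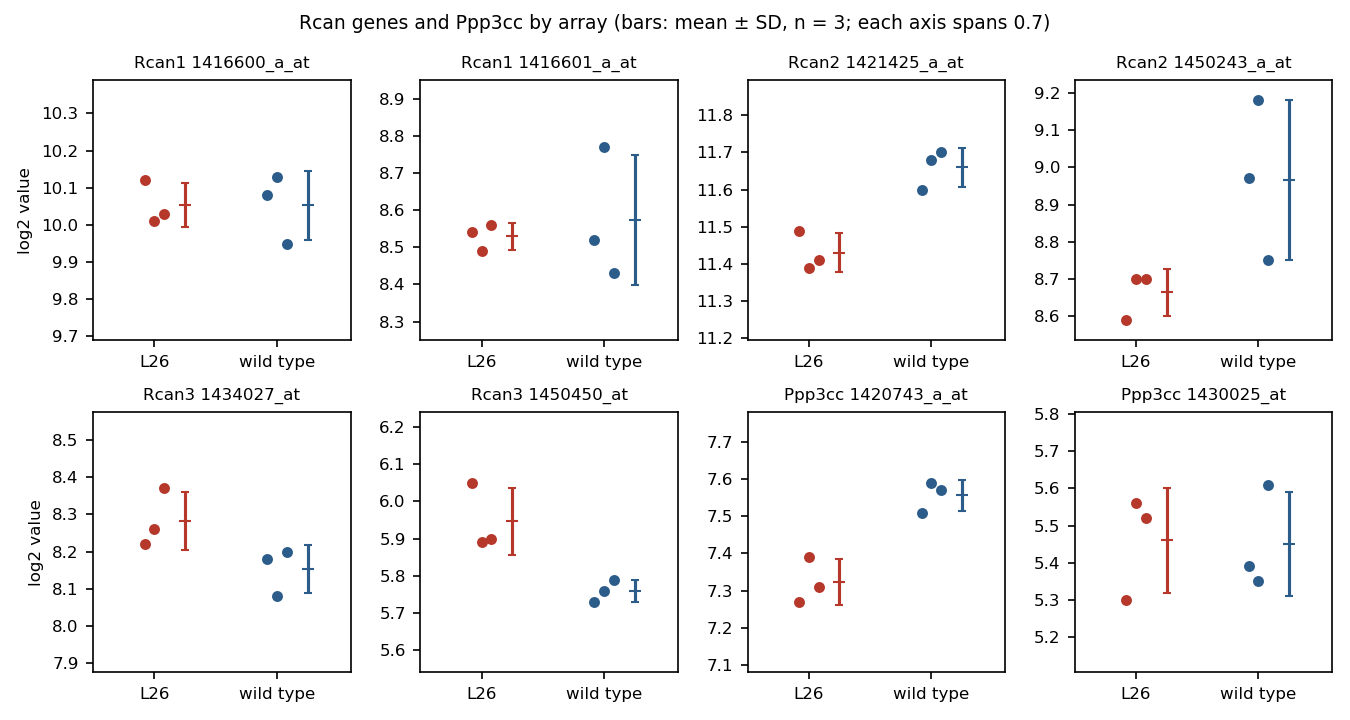
Log2 values of the Rcan genes and Ppp3cc in L26 (left) and wild type (right), with the mean and SD of 3 arrays beside the points. The Rcan2 probe sets and Ppp3cc 1420743_a_at lie lower in L26, the Rcan3 probe sets higher, and the Rcan1 probe sets and Ppp3cc 1430025_at overlap.

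Nfatc3 encodes an NFAT factor that calcineurin dephosphorylates, and its probe sets lay near the middle of the array in brightness. Probe set 1419976_s_at read 7.23, 7.28 and 7.39 in L26 and 7.41, 7.23 and 7.51 in wild type. Probe set 1452497_a_at read 6.93, 7.01 and 6.93 in L26 and 6.89, 6.93 and 6.88 in wild type. The groups overlapped on both, and the differences were of opposite sign, -0.08 (95% interval -0.26 to 0.10) and 0.06 (95% interval -0.07 to 0.18). The suffix _s_at of the brighter one marks probes that can be shared with other transcripts.

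Whether probe sets of 1 gene disagreed was tested on their difference within each array. Over the 10 pairs of members, each a dimmer probe set against the brightest of its gene, 0 passed (limma, adjusted over 16752 such pairs on the array, of which 2.7% passed), and 0 had an unadjusted p under 0.05, as 15.1% of all pairs had. For Rcan2 the dimmer probe set differed from the brighter by -0.07 in its group difference (95% interval -0.34 to 0.19). For Nfatc3 the same quantity was 0.14 (95% interval -0.08 to 0.36), and for Ppp3r1 it was 0.11 (95% interval -0.05 to 0.28).

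The precision of these values is set by the number of arrays and by the quiet signals of the bright probe sets. The median SD within groups was 0.05 over the 16 probe sets and 0.083 over all probe sets. Across the 14 probe sets outside Rcan2, the 95% intervals together reached from -0.26 to 0.23, so that by the outermost bounds a level in L26 of 1.20 times lower or 1.18 times higher than wild type was still inside an interval. Ordered by difference, the members ran from Rcan2 at the low end to Ppp3r1 1421786_at at the high end, and apart from Rcan2 each interval contained 0.

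**Figure D4:**
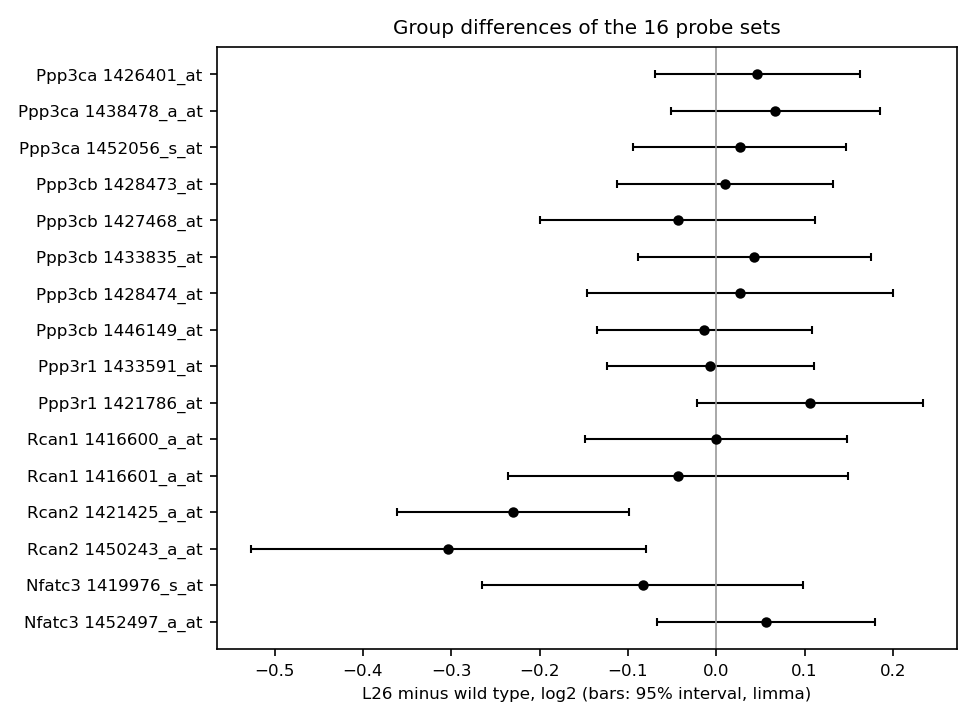
Difference L26 minus wild type on the log2 scale for the 16 probe sets, with 95% intervals from limma. The intervals of the 2 Rcan2 probe sets lie below 0 and those of the other 14 contain 0.

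Genes of calcineurin and NFAT signalling, the members among them, were counted from lists, each gene by its brightest probe set. The list of calcineurin subunits held 6 measured genes: the members Ppp3ca, Ppp3cb and Ppp3r1, with Ppp3cc, Ppp3r2 and the homolog Chp2. Of the 6 genes 1 was lower at the threshold, where 2.57% of all genes were. That gene was Ppp3cc, the catalytic subunit known best from testis. Its probe set 1420743_a_at read 7.27, 7.39 and 7.31 in L26 and 7.51, 7.59 and 7.57 in wild type. All 3 L26 arrays lay below all wild type arrays, as they did on 9.32% of all probe sets. The difference was -0.23 (SE 0.05, adjusted p = 0.0459 over genes, limma). Its dimmer probe set 1430025_at overlapped and had 0.01, and over probe sets 1420743_a_at did not pass (adjusted p = 0.0618). The Ppp3cc call, too, was lost when any 1 array was left out, at adjusted p-values from 0.0675 to 0.141. The mean of both Ppp3cc probe sets had -0.11 (adjusted p = 0.376), and the call was also lost with a trended robust prior (adjusted p = 0.0782).

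Among 12 regulators and anchors of calcineurin, Rcan2 was lower, Homer3 was higher and 10 did not pass, where 5.19% of all genes passed. Homer3, a scaffold of the postsynaptic density whose family can compete with calcineurin for NFAT, read 9.13, 9.07 and 9.28 in L26 and 8.77, 8.77 and 8.92 in wild type (difference 0.34, SE 0.07, adjusted p = 0.0297, limma). That call was lost when any array other than wild type replicate 3 was left out, with adjusted p-values of 0.0505 to 0.1. The NFAT genes (5) and the kinases that act against calcineurin on NFAT (10) had 0 calls on their brightest probe sets (limma). At an unadjusted p under 0.05 there were 1 and 3 genes, where 20.3% of all genes had one. Dimmer probe sets of some kinases differed more. Csnk1a1 had 0.14 on its brightest and -1.47 to 0.46 on its 4 others. Mapk14 had 0.003 on its brightest and -0.39 to 0.14 on its 5 others. Nfat5 had the smallest p of its list, with -0.15 (adjusted p = 0.183, limma) and -0.04 to 0.05 on its 5 other probe sets. Csnk1e had that of the kinases, with -0.15 (adjusted p = 0.185, limma) and -0.16 and 0.06 on its 2 others. Nfatc4 had 0.10 on its brightest probe set and 0.06 to 0.20 on its 3 others.

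Of 28 measured substrates of calcineurin 1 fell, 2 rose and 25 did not pass, where 5.19% of all genes passed. Mef2c, of a family of transcription factors that calcineurin can activate, read 11.39, 11.44 and 11.49 in L26 and 11.98, 12.06 and 11.94 in wild type. It fell by 0.55 (SE 0.06, adjusted p = 0.00106, limma), and its 4 other probe sets had -0.83 to -0.42. Gria1, the AMPA receptor subunit gene whose protein calcineurin dephosphorylates in depression of synapses, read 13.05, 13.01 and 13.01 in L26 and 12.69, 12.74 and 12.60 in wild type. It rose by 0.35 (SE 0.06, adjusted p = 0.00948, limma), while its other probe set had 0.09. Elk1, a transcription factor downstream of MAP kinases, rose by 0.28 (adjusted p = 0.0305), with 0.04 and 0.40 on its 2 other probe sets. The Elk1 call was lost when any array except L26 replicate 1 was left out, at adjusted p-values from 0.0579 to 0.114.

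On the side of calmodulin, 2 calmodulin-like genes could be read. Calml3 had a difference of 0.13 and Calml4 of 0.02, and neither passed (adjusted p = 0.467 and 0.982, limma). Of 10 genes for proteins that hold calmodulin, 0 passed (limma, 3 at an unadjusted p under 0.05, against 20.3% of all genes). Nrgn, the gene of neurogranin, which binds calcium-free calmodulin in dendrites, had 0.22 (adjusted p = 0.115) and Gap43, its relative in axons, had -0.18 (adjusted p = 0.106). Of 28 calmodulin effectors 2 fell, 1 rose and 25 did not pass (limma), where 5.19% of all genes passed. At an unadjusted p under 0.05 there were 14 of the 28, where 20.3% of all genes had one. The list was meant to leave out the calmodulin kinases. It still held calmodulin-dependent kinases such as Camkk2 and Eef2k, which are among the 14. Adcy8, a calcium-stimulated adenylyl cyclase, read 7.94, 7.90 and 7.91 in L26 and 8.51, 8.54 and 8.63 in wild type, and fell by 0.64 (SE 0.05, adjusted p = 0.00037, limma). Pde1b, a calmodulin-dependent phosphodiesterase, fell by 0.27 (adjusted p = 0.0416) and Mylk, a myosin light chain kinase gene of smooth muscle, rose by 0.25 (adjusted p = 0.0398), with 0.09 and 0.14 on its 2 other probe sets. The mean of all Mylk probe sets had 0.16 (adjusted p = 0.0864), and with median-centred arrays the adjusted p was 0.0531. The Pde1b call was lost without any 1 array other than L26 replicate 1, at adjusted p-values from 0.0775 to 0.125, and that of Mylk likewise, from 0.0687 to 0.139.

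Over these lists together, with each gene counted once, 9 of 99 measured genes passed, 5 lower and 4 higher, against 5.19% of all genes, 2.57% lower and 2.63% higher. At an unadjusted p under 0.05 there were 30 of the 99, where 20.3% of all genes had one. Among the 30 were 8 of the 28 substrates. The lists were chosen with earlier results of these data known, so these counts are a description and not a test of the lists. The median difference of the 99 genes was -0.007 on the log2 scale and that of all genes 0.01. With 1 array left out the count past the threshold was 3 without L26 replicate 3, wild type replicate 1 or wild type replicate 2. It was 4 without L26 replicate 2 or wild type replicate 3, and 6 without L26 replicate 1. The count over all genes fell as well, from 945 to between 405 and 701. The shifts of cell type markers given above were measured on the same arrays, and their part in these lists was not tested. The replicate number as a block gave 4 of the 99, and the same fit left 635 of 18193 genes in place of 945.

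**Figure D5:**
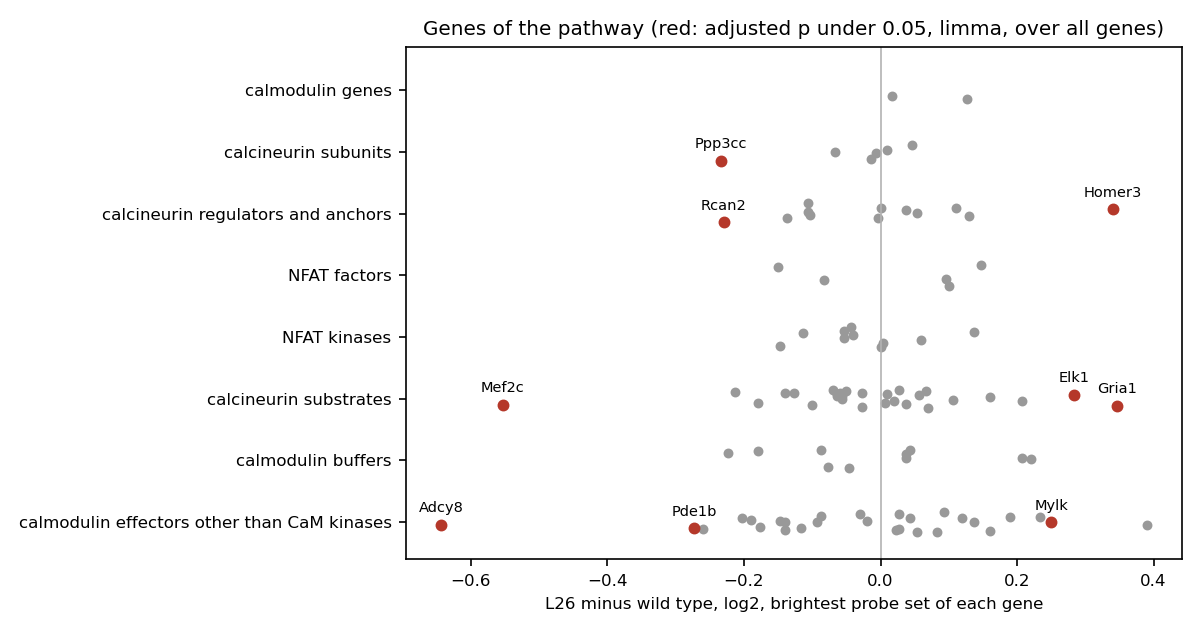
Difference L26 minus wild type on the log2 scale for the brightest probe set of each listed gene, 1 point per gene, with genes past an adjusted p of 0.05 (limma, over all genes) in red and named. Rcan2 and Ppp3cc lie at -0.23 at the left edge of the calcineurin subunits and regulators, and Adcy8 and Mef2c lie farthest to the left.

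The genes whose profile over the 6 arrays was nearest to that of Rcan2, by the root mean square difference of mean-centred log2 values over 18193 genes, were Uspl1 (0.011), Chchd6 (0.017) and Fam76a (0.021). Their differences were -0.22, -0.24 and -0.25, and none of these 3 passed in the gene table (adjusted p = 0.0614, 0.0512 and 0.0512, limma). The likeness rests on 6 values that fall into the same 2 groups and is a description only.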

How the data were processed

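Hippocampal RNA was hybridised to Affymetrix mouse arrays, 1 array per sample, from 4 µg of total RNA per the labels' protocols. The authors deposited log2 values, 1 per probe set and array, made with RMA and the affy package per the submitters' processing notes (no versions stated). This method usually corrects background, quantile-normalizes, summarises probes and gives no detection calls, so differences of dim transcripts can be understated. Arrays have no sequencing depth; precision is limited by their number.

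Of 45101 probe sets 64 controls were left out. Symbols came from the platform annotation. The Entrez identifiers of all 6 measured member genes carried the same symbol in the RefSeq table. Group differences, L26 minus wild type, came from lmFit and eBayes of limma 3.58.1 (R 4.3.3, two-sided), adjusted by Benjamini-Hochberg over 45037 probe sets, over 18193 genes (brightest probe set each) or over 16752 probe set pairs. The p-values measure the spread between these samples, which the design text calls independent. The code was tested on simulated data. The members and lists were chosen with earlier results of these data known. Named were all member probe sets, of each pathway list the genes past the threshold (up to 6) or otherwise 1 or 2 with the smallest p, and the 3 genes nearest in profile to the member gene with the smallest p. Alternatives were a replicate block, each array left out, repeated quantile normalization, median centring, removal of the dimmest 40%, a trended robust prior, array weights, a threshold of 0.1, a test without moderation, removal of probe sets ending in _x_at or _s_at, and gene means.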

Additional observations from a re-analysis of the deposited data

How the results depend on the processing

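The count of member probe sets past the threshold was 0 and became 1, a Rcan2 probe set in each case, with median-centred arrays, without the dimmest 40% of probe sets, with a trended robust prior, with array weights, at a threshold of 0.1, and without wild type replicate 3 (range 0 to 1 over the arrays left out). It stayed 0 with repeated quantile normalization, the test without moderation and the removal of shared probe sets. For probe set 1421425_a_at of Rcan2 the difference ran from -0.26 to -0.21 and its adjusted p from 0.0141 to 0.199 over all alternatives. For 1450243_a_at the difference ran from -0.41 to -0.20 and the adjusted p from 0.0427 to 0.389. The count of disagreeing probe set pairs was 0 under each alternative run for it, which did not include the removal of probe sets by suffix or gene means. The count of pathway genes past the threshold, 9, was 3 to 6 with an array left out, 14 with the trended robust prior and 1 without moderation. The smallest such count over arrays left out came without L26 replicate 3, wild type replicate 1 or wild type replicate 2. Over all genes 945 passed, 405 to 701 with an array left out, 1357 with the trended robust prior and 70 without moderation. Array-wide, 1764 probe sets passed, 810 to 1430 with an array left out (968 without L26 replicate 2, 810 without L26 replicate 3, 1064 without wild type replicate 2), 3167 at a threshold of 0.1 and 142 without moderation. The causes were not tested.

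Differences near 0 changed sign without nearing the threshold. With median centring 1452056_s_at of Ppp3ca had -0.003, 1428473_at and 1428474_at of Ppp3cb -0.02 and -0.003, and 1416600_a_at of Rcan1 -0.03. Repeated quantile normalization gave 0.0017 for 1433591_at of Ppp3r1 and 0.016 for 1416600_a_at, to which array weights gave -0.0064. With an array left out, 1427468_at of Ppp3cb ran from -0.102 to 0.0033, 1428473_at from -0.0033 to 0.032, 1428474_at from -0.032 to 0.088, 1446149_at from -0.033 to 0.0017, 1433591_at from -0.015 to 0.010, 1416600_a_at of Rcan1 from -0.052 to 0.038 and 1416601_a_at from -0.115 to 0.055. No direction can be read for these probe sets.

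The replicate number as a block gave a count of 0 member probe sets, 0 disagreeing pairs and 4 pathway genes. Same-numbered arrays had deviations that correlated at -0.038, -0.07 and 0.154. The arrays numbered 3 correlated best with each other, and those numbered 1 and 2 did not. The highest correlation of all, 0.188, was between L26 replicate 2 and wild type replicate 1, whose numbers differ. With 3 arrays per group these correlations cannot decide whether the numbers pair the samples. Dim probe sets such as 1446149_at of Ppp3cb limit what can be read, since the values carry no detection call.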
